A study of Homo sapiens with 24 samples.

Results

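The 6 genes described here encode proteins that stressed cells release: GDF15, INHBE, ADM2, VEGFA, STC1 and STC2. They were taken by symbol from the gene count tables of 2 human pancreatic ductal adenocarcinoma cell lines, PANC1 and BXPC3, and are 6 of the 25168 genes listed for each line. Several of the 6 were chosen by their measured log2 changes in these same libraries, because these were large or departed from additivity. Their changes under treatment are therefore given as a description, as log2 changes with standard errors and without p-values. In each line, cells received SR4 at 5 uM, lonidamine at 300 uM, both compounds, or vehicle for 24 h, with 3 libraries in each of the 8 groups and 24 libraries in all. SR4, which is named here by its code, is described as uncoupling mitochondria. Lonidamine has known inhibitory effects on respiratory complex II and on the transport of lactate and pyruvate. The title of the series names a paired therapy aimed at bioenergetics in this cancer. The labels report no genetic change in either line, do not give the dose of each compound within the combination, and do not say whether the 3 libraries of a group came from separate cultures, so p-values measure the spread between these libraries only, which may be technical.

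GDF15 is a distant member of the TGF-beta superfamily that signals through GFRAL and RET in the hindbrain and lowers appetite; it is a widely used blood marker of mitochondrial stress. INHBE encodes the beta-E subunit of activin E. ADM2, also called intermedin, is a vasodilator peptide of the calcitonin family, and VEGFA is the main growth factor for blood vessels. STC1 and STC2 are stanniocalcins, secreted glycoproteins named after a calcium-lowering hormone of fish; STC2 also binds and blocks the protease PAPP-A, which frees insulin-like growth factors. In many cell types the transcription factors ATF4 and CHOP of the integrated stress response, which slows translation when mitochondria, the endoplasmic reticulum or amino acid supply fail, induce GDF15, INHBE, ADM2, VEGFA and STC2. The hypoxia-inducible factors are known to induce VEGFA and the stanniocalcins.

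In the deposited tables, GDF15 lies on chromosome 19 (18382170 to 18389176, plus strand), INHBE on chromosome 12 (57452323 to 57459280, plus), ADM2 on chromosome 22 (50481556 to 50486440, plus), VEGFA on chromosome 6 (43770184 to 43786487, plus) and STC2 on chromosome 5 (173314713 to 173329503, minus), in GRCh38; the position of STC1 is given with its values. All 6 are protein-coding genes. The microRNA gene MIR3189 lies inside GDF15 on the same strand and had at most 3 counts in any library. No other listed gene overlapped a member.

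Promoters are shown because 5 of the genes are known targets of ATF4 and CHOP. RefSeq promoter windows (GRCh38.p14) were matched for 3 of the 6 genes. Each of these windows holds the 250 bases before the annotated start, and capitals mark GCGTG on either strand, a core of the element bound by hypoxia-inducible factors.
GDF15, chr19:18385908-18386157, plus strand: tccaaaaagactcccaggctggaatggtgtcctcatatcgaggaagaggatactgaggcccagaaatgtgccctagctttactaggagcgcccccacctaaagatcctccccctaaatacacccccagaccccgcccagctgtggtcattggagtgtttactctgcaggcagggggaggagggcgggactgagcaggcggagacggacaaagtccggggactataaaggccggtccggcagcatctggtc
ADM2, chr22:50481293-50481542, plus strand: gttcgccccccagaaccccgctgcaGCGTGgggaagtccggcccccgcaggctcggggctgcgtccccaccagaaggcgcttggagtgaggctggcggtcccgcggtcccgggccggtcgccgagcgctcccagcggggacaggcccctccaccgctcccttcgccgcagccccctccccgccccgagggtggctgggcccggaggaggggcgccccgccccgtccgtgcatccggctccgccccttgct
STC2, chr5:173328415-173328664, minus strand: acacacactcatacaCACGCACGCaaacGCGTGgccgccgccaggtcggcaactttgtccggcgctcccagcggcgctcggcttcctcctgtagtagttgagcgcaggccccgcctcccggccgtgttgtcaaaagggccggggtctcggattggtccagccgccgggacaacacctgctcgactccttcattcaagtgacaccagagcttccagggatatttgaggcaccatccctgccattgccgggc
The GDF15 and STC2 windows lie inside the spans that the deposited tables give for these genes, since the annotated starts differ. GCGTG occurred once in the ADM2 window, between 225 and 221 bases before the start. It occurred 3 times in the STC2 window: at 235 to 231 and 231 to 227 bases before the start on the reverse strand, sharing 1 base, and at 222 to 218 bases on the gene's strand. It was not found in the GDF15 window, and 32.2% of 35116 windows of this length hold it. Neither ACGTG, the other hypoxia core (18.5% of windows), nor TGATGNAA, the core of the composite element for CHOP and ATF4 (3.14% of windows), was found in any of the 3 windows on either strand. These matches describe letters in a short window and not bound sites.

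Libraries held 8873041 to 11822495 counts in PANC1 and 9142433 to 11470973 in BXPC3. Levels are given as CPM, counts normalised to the depth of each library after TMM scaling, and the mean ± SD is over 3 libraries. Ductal epithelial markers summed to 884 to 3980 CPM over the PANC1 libraries and 3620 to 6640 CPM over the BXPC3 libraries. Their sums were lower in every treated group of both lines: the means were 2090 CPM with SR4, 1140 CPM with lonidamine and 900 CPM with both compounds, against 3900 CPM with vehicle in PANC1, and 5120, 4680 and 3630 CPM against 6350 CPM, in the same order, in BXPC3. The sums hide single markers that went the other way. In BXPC3 with SR4, 3 of the 9 rose and 6 fell (33.4% and 33.9% of all genes), and KRT7 had 2380 CPM against 1860 CPM with vehicle. Among markers of other cell types, PTPRC, DCN and CPA1 had at most 1 count in any library, and INS, GCG and CELA3A had 0 counts in both lines. The 10 fibroblast markers summed to 17.2 to 38.7 CPM over treated and 94.0 to 99.5 CPM over vehicle libraries of PANC1, mostly COL1A1, and to 18.5 to 28.9 CPM over treated and 26.0 to 26.3 CPM over vehicle libraries of BXPC3. The 12 immune markers summed to 142 to 222 CPM over treated and 122 to 131 CPM over vehicle libraries of PANC1, nearly all of it CD68 (up to 2393 counts), and to 26.8 to 41.2 CPM over treated and 22.5 to 24.3 CPM over vehicle libraries of BXPC3, mostly CD68 (up to 360 counts); the sums were higher in every treated library of both lines than in any vehicle library of the same line. Endothelial markers summed to at most 13.7 CPM, in BXPC3 vehicle libraries, where CDH5 reached 95 counts, and acinar and islet markers to at most 11.7 CPM, in PANC1, nearly all of it SYP (up to 133 counts). The part of these markers in the members' values was not tested. In bulk RNA such as this, fewer cells of a kind and less RNA per cell cannot be told apart.

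In PANC1, GDF15 was high with each compound alone and much lower with the combination, though still above vehicle. GDF15 had 247, 268 and 245 CPM with SR4, 226, 211 and 222 CPM with lonidamine, and 65.0, 71.3 and 63.8 CPM with both compounds, against 30, 29.4 and 27.1 CPM with vehicle. None of the 4 groups overlapped another. The log2 change against vehicle was 3.13 ± 0.0573 with SR4, 2.93 ± 0.0574 with lonidamine and 1.21 ± 0.0655 with both (SE). Set against the single compounds, the combination held 3.80-fold less GDF15 than SR4 and 3.30-fold less than lonidamine, log2 differences of −1.93 ± 0.0490 and −1.72 ± 0.0488.

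In BXPC3, GDF15 took the other order. It had 112, 100 and 107 CPM with SR4, 101, 95.5 and 87.2 CPM with lonidamine, and 185, 196 and 195 CPM with both compounds, against 17.9, 17.5 and 17.3 CPM with vehicle. The single compounds overlapped each other, and the combination lay above both. Its log2 change against vehicle was 2.60 ± 0.0680 with SR4, 2.43 ± 0.0692 with lonidamine and 3.45 ± 0.0651 with both. The combination exceeded SR4 by 0.85 ± 0.0508 and lonidamine by 1.02 ± 0.0517 on the log2 scale.

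INHBE was almost silent without treatment in both lines, so its changes rest on very few vehicle counts. In PANC1 it had 43, 44 and 54 counts with SR4, 16, 15 and 27 counts with lonidamine and 60, 40 and 47 counts with both compounds, against 0 counts in all 3 vehicle libraries. Set against a floor of 3 counts over the vehicle group, INHBE was 44.9-fold higher with SR4, 15.4-fold with lonidamine and 41.4-fold with both. These values are ratios to that floor and not lower limits. The lower ends of the exact 95% intervals against the vehicle counts were 36.1, 12.1 and 33.3, in the same order. These intervals cover counting error only. The SR4 and combination libraries overlapped (4.92 ± 0.577 CPM with SR4 and 4.52 ± 0.684 CPM with both), and lonidamine alone lay below them at 1.67 ± 0.484 CPM. In BXPC3 it had 123, 122 and 150 counts with SR4, 25, 15 and 17 counts with lonidamine and 30, 18 and 29 counts with both, against 3, 1 and 0 counts with vehicle. SR4 alone stood apart there: the combination held 4.35-fold less INHBE than SR4, a log2 difference of −2.12 ± 0.197, and overlapped lonidamine. The log2 changes against the 4 vehicle counts were 6.56 ± 0.345, 3.86 ± 0.538 and 4.44 ± 0.495 for SR4, lonidamine and both, and became 7.75, 5.05 and 5.63 without the vehicle library that held 3 of those counts.

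ADM2 was higher in every treated group, with the combination highest in BXPC3 and lowest of the treated groups in PANC1. In PANC1 it had 25.4, 23.1 and 25.7 CPM with SR4, 32.8, 32.6 and 31.7 CPM with lonidamine and 16.8, 21.4 and 17.9 CPM with both, against 3.40, 4.15 and 3.11 CPM with vehicle. Its log2 changes were 2.80 ± 0.134, 3.18 ± 0.126 and 2.39 ± 0.139 in that order, and no group overlapped another. In BXPC3 it had 40.8, 39.4 and 39.5 CPM with SR4, 50.7, 51 and 48.4 CPM with lonidamine and 52.5, 52.7 and 54.7 CPM with both, against 2.26, 2.33 and 1.42 CPM with vehicle. Here the log2 changes were 4.31 ± 0.115, 4.64 ± 0.111 and 4.73 ± 0.111. The combination exceeded lonidamine by only 0.09 ± 0.0628 on the log2 scale in BXPC3, although its libraries all lay above.

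**Figure D1:**
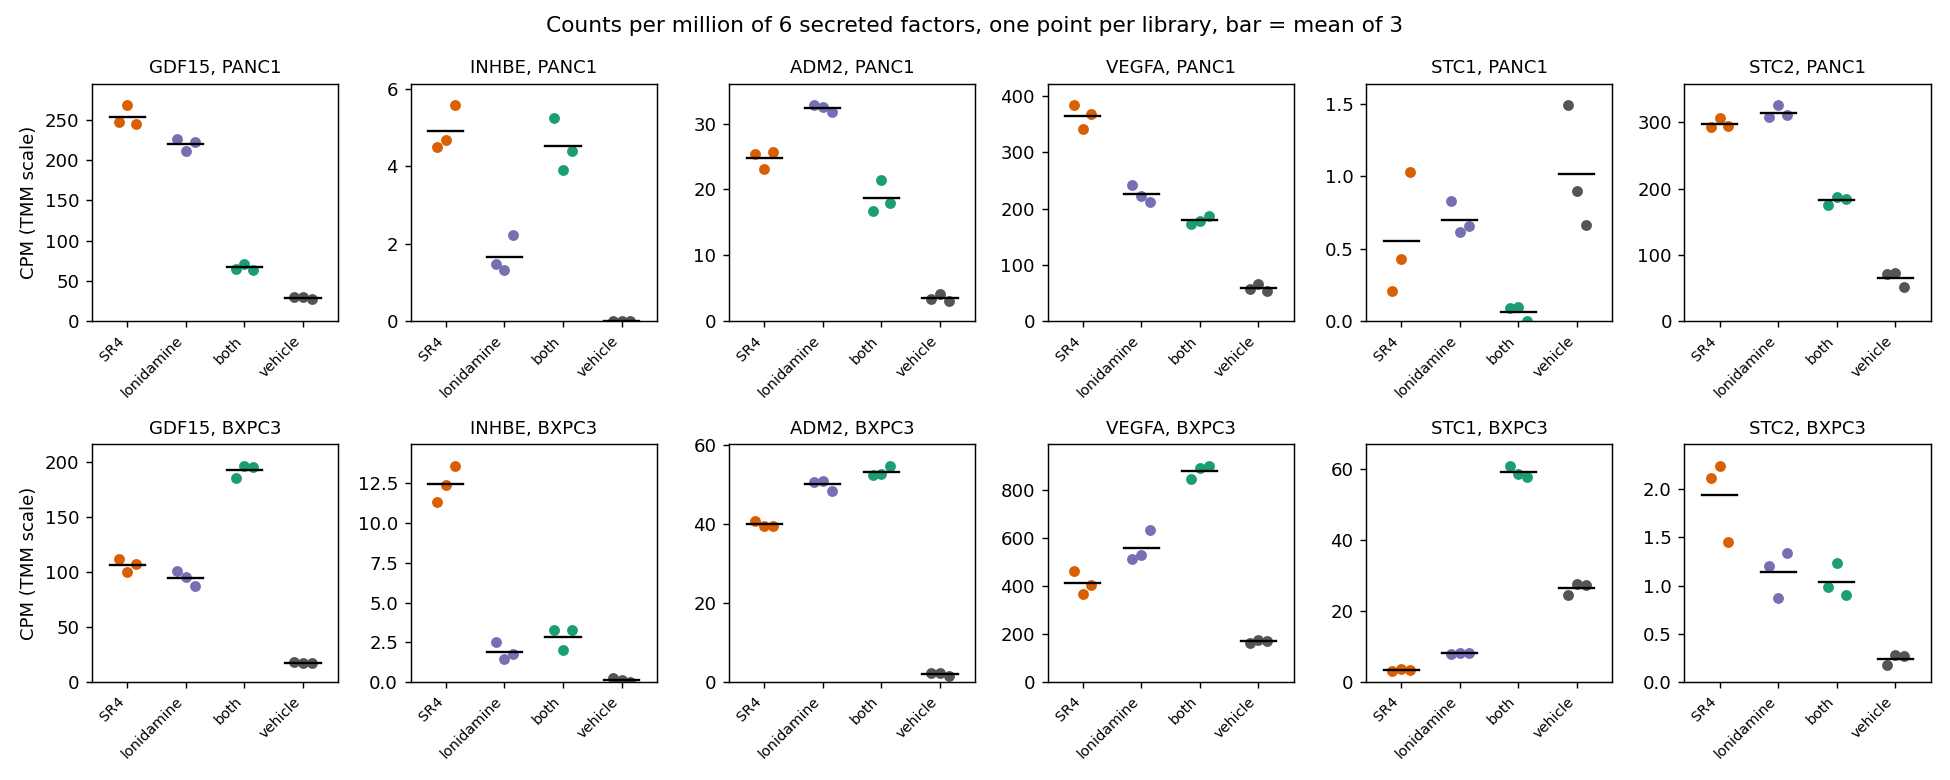
CPM on the TMM scale (y axis, linear from 0, its own range in each panel) of each member in PANC1 (upper row) and BXPC3 (lower row) under SR4, lonidamine, both compounds and vehicle (x axis); points are libraries and bars the mean of 3. The combination's points lie above those of either compound for GDF15 and VEGFA in BXPC3 (lower row) and below them in PANC1 (upper row), and STC1 in BXPC3 is at 3.32 CPM with SR4 and 59.1 CPM with both compounds.

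VEGFA was, in both lines, higher in every treated library than in any vehicle library. In PANC1 it had 384, 342 and 369 CPM with SR4, 242, 222 and 212 CPM with lonidamine and 173, 179 and 187 CPM with both, against 57.7, 66.9 and 53.8 CPM with vehicle. Log2 changes were 2.62 ± 0.0621, 1.92 ± 0.0630 and 1.59 ± 0.0641, so that the treated groups ran SR4, lonidamine, combination without overlap. In BXPC3 it had 463, 367 and 403 CPM with SR4, 512, 526 and 632 CPM with lonidamine and 845, 888 and 898 CPM with both, against 160, 176 and 169 CPM with vehicle. There the log2 changes were 1.29 ± 0.0684, 1.72 ± 0.0683 and 2.38 ± 0.0687 and the order was the opposite one, again without overlap.

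STC1 was the one member that was lower than vehicle with each compound and higher with both, and this was seen in BXPC3. It had 2.95, 3.66 and 3.35 CPM with SR4, 7.99, 8.16 and 8.13 CPM with lonidamine and 60.9, 58.6 and 57.9 CPM with both, against 24.5, 27.6 and 27.4 CPM with vehicle. No group overlapped another. The log2 changes were −2.996 ± 0.113 with SR4, −1.71 ± 0.0952 with lonidamine and 1.16 ± 0.0695 with both, and the combination held 17.8-fold more STC1 than SR4 and 7.30-fold more than lonidamine. The gene lies on chromosome 8 (23841915 to 23854807, minus strand, GRCh38). In PANC1 it was near the limit of detection, too low for the filter that the fit used. Its counts were 2, 4 and 10 with SR4, 9, 7 and 8 with lonidamine and 1, 1 and 0 with both, against 14, 8 and 6 with vehicle. The combination's 2 counts against 28 in vehicle gave a depth-adjusted ratio of 0.0604, with an exact 95% interval of 0.00697 to 0.24 that covers counting error only. The single compounds overlapped vehicle.

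STC2 was abundant in PANC1 and barely detected in BXPC3. In PANC1 it had 293, 306 and 294 CPM with SR4, 308, 326 and 311 CPM with lonidamine and 176, 188 and 185 CPM with both, against 71.9, 73.3 and 52.1 CPM with vehicle. Log2 changes were 2.18 ± 0.0673, 2.26 ± 0.0667 and 1.47 ± 0.0688. As for GDF15, the combination lay between vehicle and both single compounds, 1.63-fold below SR4 and 1.72-fold below lonidamine. In BXPC3 it had 23, 22 and 16 counts with SR4, 12, 9 and 13 counts with lonidamine and 9, 11 and 8 counts with both, against 2, 3 and 3 counts with vehicle. All treated libraries lay above all vehicle libraries there, with log2 changes of 2.95 ± 0.422, 2.19 ± 0.479 and 2.06 ± 0.499, whose sizes rest on 8 vehicle counts. Lonidamine and the combination overlapped.

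**Figure D2:**
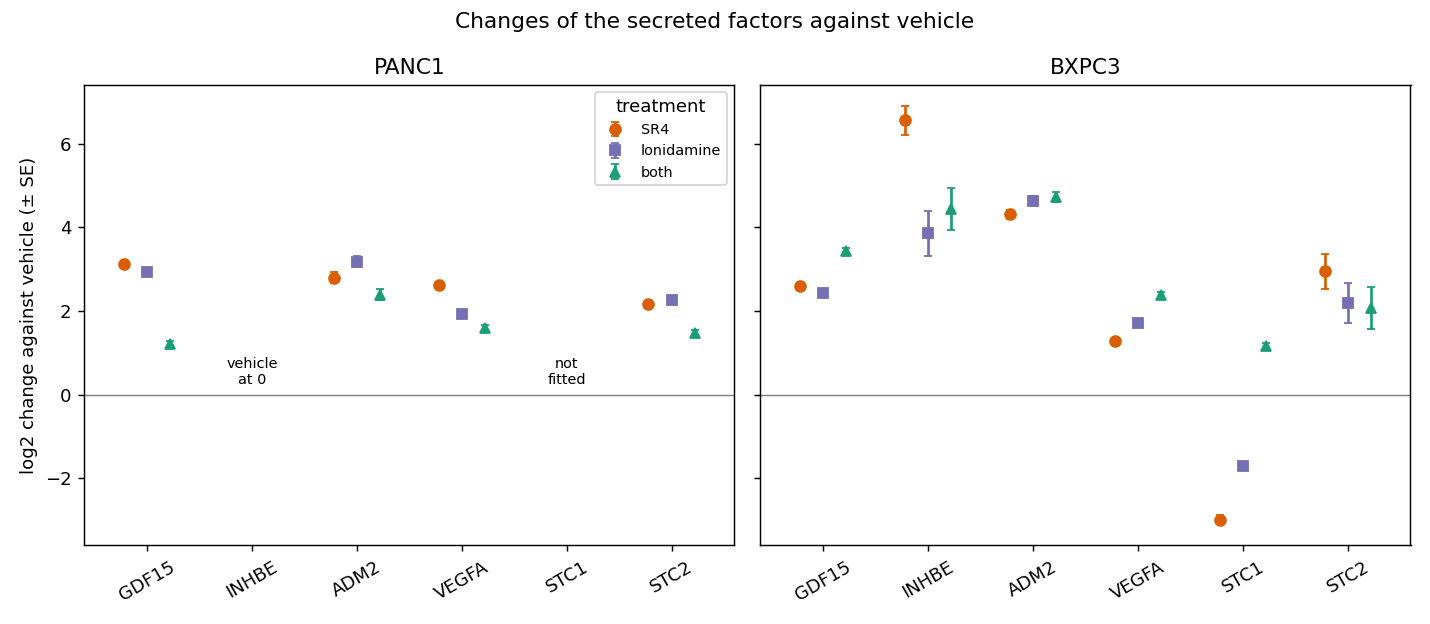
Log2 change against vehicle (y axis, with SE) of each member (x axis) under SR4, lonidamine and both compounds in PANC1 (left) and BXPC3 (right). INHBE in PANC1 has no point because vehicle had 0 counts, and STC1 in PANC1 was not fitted; in PANC1 the triangle of the combination is lowest for GDF15 (1.21), ADM2, VEGFA and STC2.

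Counts of members past an adjusted p of 0.05 (edgeR's quasi-likelihood test, Benjamini-Hochberg adjustment over all genes) are set beside the shares of all tested genes that were higher and lower, and nothing is read from them, since these comparisons helped to choose the members. In PANC1, where 5 members were fitted, 5 were higher and 0 lower with SR4 (35% of all 12514 genes higher, 36.7% lower), with lonidamine (35% higher, 34.2% lower) and with both (40.1% higher, 40.9% lower). In BXPC3, where 6 were fitted, 5 were higher and 1 lower with SR4 (33.4% of 12920 genes higher, 33.9% lower) and with lonidamine (34.8% higher, 32.7% lower), and 6 were higher and 0 lower with both (39.7% higher, 39.5% lower). Combination against SR4 gave 0 higher and 4 lower in PANC1 (33.2% of genes higher, 33.4% lower) and 4 higher and 2 lower in BXPC3 (30.3% higher, 30.5% lower). Combination against lonidamine gave 1 higher and 4 lower in PANC1 (37.1% higher, 37.5% lower) and 3 higher and 0 lower in BXPC3 (30.1% higher, 30.7% lower). The departure from additivity on the log2 scale was past the threshold for 5 of 5 members in PANC1, 0 positive and 5 negative (30.8% of genes positive, 30% negative). In BXPC3 it was past the threshold for 6 of 6, 1 positive and 5 negative (23.7% positive, 25.5% negative).

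The departure of the combination from the sum of both single log2 changes, assuming the same doses, was negative for all fitted members except STC1 in BXPC3. A sum of log2 changes is a product of fold changes. A negative value therefore does not by itself show whether the combination fell short of the sum of both changes in CPM, which was not computed. In PANC1 GDF15, ADM2, VEGFA and STC2 had lower mean CPM with both than with either compound alone. In BXPC3 GDF15, ADM2 and VEGFA had higher mean CPM with both than with either, and INHBE and STC2 lower than with SR4. The departure in PANC1 was −4.86 ± 0.0756 for GDF15, −3.59 ± 0.161 for ADM2, −2.95 ± 0.0829 for VEGFA and −2.97 ± 0.0893 for STC2. The value for INHBE in PANC1 depends on vehicle libraries without a count, so it is given only with the alternative fits at the end. In BXPC3 it was −1.58 ± 0.0878 for GDF15, −5.98 ± 0.548 for INHBE, −4.22 ± 0.138 for ADM2, −0.63 ± 0.0931 for VEGFA and −3.07 ± 0.579 for STC2. STC1 in BXPC3 departed upwards, by 5.86 ± 0.142. How the lines differed in these responses was not tested, since the members were chosen for them.

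The difference in level between vehicle-treated lines was not named in the choice of members. The same vehicle libraries enter the changes that were, so the p-values below are not independent of the choice. Of the 6 members, 5 are compared by test between the lines, from 1 fit of the 24 libraries, in which 84.3% of 13930 genes differed at an adjusted p of 0.05 (edgeR's quasi-likelihood test, Benjamini-Hochberg adjustment). STC2 was 244-fold higher in PANC1, at 63.7 ± 11.6 CPM against 0.25 ± 0.0605 CPM in BXPC3 (log2 difference 7.93 ± 0.2, adjusted p = 1.41e-30). The size of this difference rests on 8 counts in the BXPC3 vehicle libraries. STC1 passed the low-count filter of this fit only through BXPC3, so its difference is a description with no test: it had 0.984 ± 0.409 CPM in PANC1 and 27.6 ± 1.87 CPM in BXPC3 (log2 difference −4.78 ± 0.178). VEGFA was lower in PANC1, at 57.6 ± 6.66 CPM against 175 ± 8.96 CPM in BXPC3 (−1.61 ± 0.0800, adjusted p = 1.03e-20). GDF15 was 1.53-fold higher in PANC1, at 27.9 ± 1.52 CPM against 18.3 ± 0.302 CPM (0.61 ± 0.0862, adjusted p = 4.08e-08), and ADM2 1.65-fold higher, at 3.44 ± 0.526 CPM against 2.08 ± 0.530 CPM (0.72 ± 0.210, adjusted p = 0.00196). INHBE had 0 counts in PANC1 and 4 in BXPC3, with an adjusted p of 0.0473 in edgeR that was 0.0649 in DESeq2, and both groups are close to the floor of 3 counts. It passed the low-count filter through treated libraries only, so nothing is read from its test. Per kilobase of gene length, the order of vehicle levels in PANC1 was GDF15 (15.9 CPM per kb), STC2 (10.7), VEGFA (4.12), ADM2 (0.831), STC1 (0.245) and INHBE (0), and in BXPC3 VEGFA (11.7), GDF15 (9.71), STC1 (6.40), ADM2 (0.469), then STC2 and INHBE (0.0392 each). This order holds only for the deposited gene lengths, which ran from 1.81 kb for GDF15 to 14.427 kb for VEGFA. VEGFA has 32 annotated transcripts, and whether its length is that of the transcripts expressed here was not tested.

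**Figure D3:**
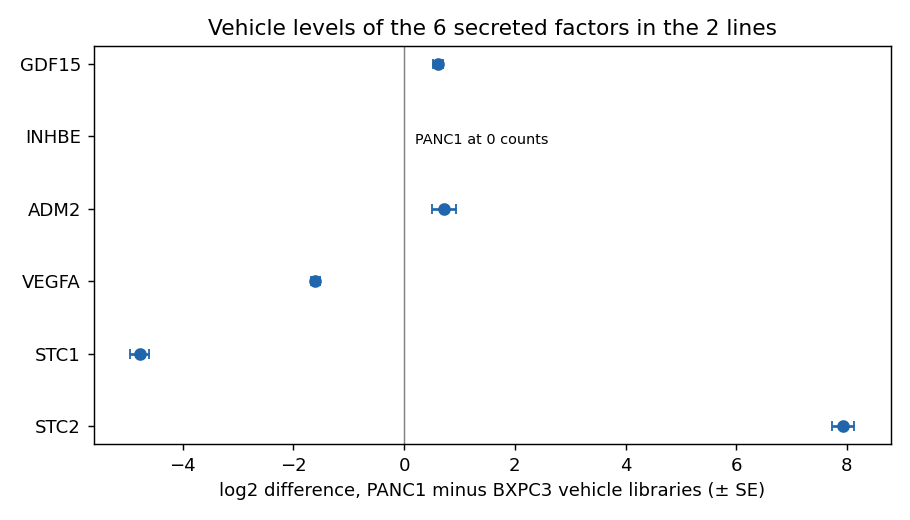
Log2 difference in level between vehicle-treated PANC1 and BXPC3 cells (x axis, with SE) for the members (y axis); positive values mean higher in PANC1. STC2 lies at 7.93 and STC1 at −4.78, and INHBE has no point because PANC1 had 0 counts.

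Regulators and other genes of the integrated stress response were mostly higher with every treatment. Of these 21 genes in PANC1, 15 rose and 2 fell with SR4 (median log2 change 1.84), and 15 rose and 4 fell with lonidamine (1.87). With both compounds 18 rose and 2 fell (1.89). Over all genes 35%, 35% and 40.1% rose and the medians were −0.0187, 0.00945 and −0.0199. In BXPC3 15 rose and 3 fell with SR4 (1.42), 16 rose and 4 fell with lonidamine (1.3) and 16 rose and 4 fell with both (1.99), against 33.4%, 34.8% and 39.7% of all genes rising, with medians of 0.00864, 0.0257 and −0.000949. TRIB3, a pseudokinase induced by CHOP, had 535 ± 11.8 CPM with SR4, 427 ± 8.79 CPM with lonidamine and 850 ± 23.7 CPM with both, against 24.9 ± 2.63 CPM with vehicle in BXPC3. In PANC1 TRIB3 had 549 ± 15, 260 ± 2.89 and 492 ± 5.68 CPM, against 19.5 ± 2.84 CPM. ASNS, the asparagine synthetase, rose by 3.35 ± 0.0488 with SR4, 3.81 ± 0.0486 with lonidamine and 3.41 ± 0.0490 with both on the log2 scale in BXPC3. The adjusted p-values for TRIB3 and ASNS against vehicle were 2.88e-27 or lower for TRIB3 and 1.27e-26 or lower for ASNS.

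Set against SR4 alone, 10 of the 21 integrated stress response genes rose and 6 fell in the PANC1 combination, with a median of 0.0968. Over all genes 33.2% rose and 33.4% fell, with a median of −0.0162. ATF3, a stress-induced repressor and activator of transcription, had 610 ± 12.8 CPM with both and 405 ± 6.34 CPM with SR4 (0.59 ± 0.0357, adjusted p = 2.76e-14). DDIT3, which encodes CHOP, had 275 ± 4.15 CPM and 249 ± 6.43 CPM (0.14 ± 0.0377, adjusted p = 0.00198), and ATF4 598 ± 5.88 CPM and 559 ± 6.16 CPM (0.10 ± 0.0352, adjusted p = 0.0175). TRIB3 fell slightly, by 0.16 ± 0.0393 (adjusted p = 0.000861). In BXPC3 13 of the 21 rose and 4 fell against SR4 (median 0.36; 30.3% and 30.5% of all genes, median −0.00779), and TRIB3 rose by 0.67 ± 0.0380 (adjusted p = 3.14e-14).

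Sensors and chaperones of the endoplasmic reticulum, through which all 6 proteins pass on their way out of the cell, numbered 14 in PANC1: 12 rose and 0 fell in the combination against vehicle (median 1.57; 40.1% and 40.9% of all genes), and 14 rose and 0 fell against SR4 (median 0.86; 33.2% and 33.4%). HSPA5, the chaperone BiP, had 10300 ± 79.0 CPM with both compounds and 6840 ± 44.1 CPM with SR4 (0.59 ± 0.0283, adjusted p = 2.12e-16), against 767 ± 27.4 CPM with vehicle. Of 9 genes for protein-cleaving convertases and the secretory route, 8 rose and 1 fell against SR4 (median 0.78). In BXPC3 11 of the 14 chaperones and sensors rose and 1 fell against SR4 (median 0.41), and 5 of 11 genes of the secretory route rose and 2 fell (0.0666; 30.3% and 30.5% of all genes).

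Of the genes of the hypoxia response, 3 of 16 rose and 12 fell in the PANC1 combination against SR4 (median −0.67; 33.2% of all genes rose and 33.4% fell), and 13 of 15 rose and 2 fell in that of BXPC3 (median 0.80; 30.3% and 30.5%). The difference between the lines was not tested. Against vehicle, 13 rose and 1 fell with SR4, 10 rose and 0 fell with lonidamine and 10 rose and 4 fell with both in PANC1 (medians 1.09, 0.26 and 0.45), and 6 rose and 5 fell, 6 rose and 3 fell, and 12 rose and 2 fell in BXPC3 (0.0229, 0.13 and 0.66), beside the shares of all genes given above. SLC2A1, the glucose transporter GLUT1, had 301 ± 21.0 CPM with SR4, 149 ± 9.53 CPM with lonidamine and 150 ± 4.06 CPM with both, against 55.5 ± 4.93 CPM with vehicle in PANC1 (all adjusted p at or below 1.16e-17). EPAS1, the hypoxia-inducible factor HIF-2 alpha, rose in PANC1 by 1.48 ± 0.0397, 1.17 ± 0.0397 and 0.89 ± 0.0401 in that order (adjusted p at or below 1.04e-17). In BXPC3 NDRG1, a hypoxia-induced stress gene, had 307 ± 8.35, 761 ± 13.6 and 1830 ± 26.9 CPM, against 67.5 ± 2.93 CPM (adjusted p at or below 2.06e-25). In PANC1 NDRG1 had 101 ± 12.6, 43.8 ± 4.82 and 22 ± 1.87 CPM, against 27 ± 1.09 CPM. SLC2A1 had 305 ± 1.28, 415 ± 3.04 and 400 ± 13 CPM in BXPC3, against 410 ± 21.6 CPM. These values of NDRG1 in PANC1 and SLC2A1 in BXPC3 were added after they were seen. LOX, a collagen cross-linking oxidase, had 84.1 ± 4.28 CPM with both and 30.4 ± 3.12 CPM with SR4 in BXPC3, against 8.81 ± 0.272 CPM with vehicle (adjusted p for both against vehicle 2.04e-22).

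**Figure D4:**
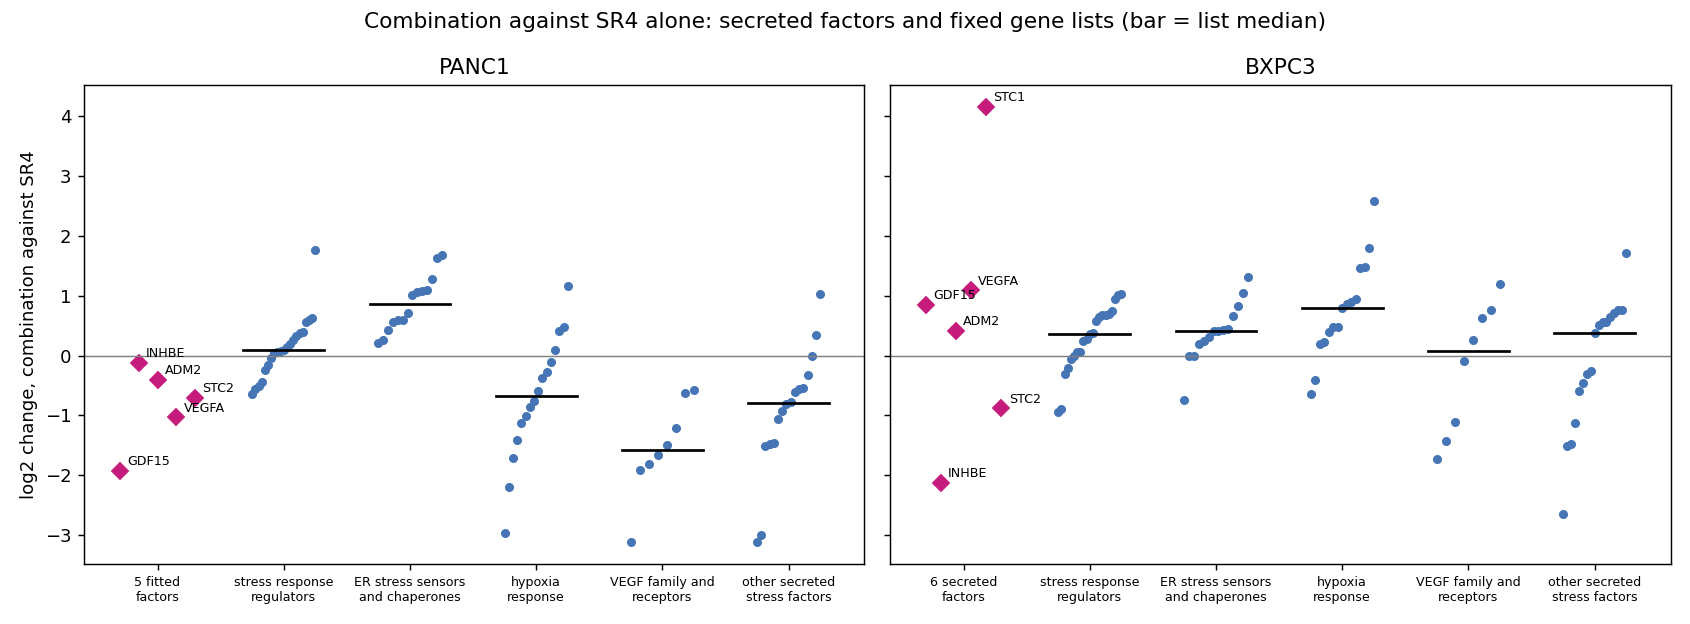
Log2 change of the combination against SR4 alone (y axis) for the members (diamonds, named) and for the genes of 5 lists (dots, bar at the list median) in PANC1 (left) and BXPC3 (right). The median of the hypoxia response list is −0.67 in PANC1 and 0.80 in BXPC3, and all 14 endoplasmic reticulum genes lie above 0 in PANC1.

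Of 8 other genes for ligands, relatives and receptors of the VEGF family tested in PANC1, 2 rose and 6 fell with SR4, 1 rose and 5 fell with lonidamine and 0 rose and 8 fell with both (medians −0.65, −0.28 and −2.21), where 35%, 35% and 40.1% of all genes rose and 36.7%, 34.2% and 40.9% fell. ANGPTL4, an angiopoietin-like secreted protein, had 65.7 ± 10.7 CPM with SR4, 61.2 ± 6.39 CPM with lonidamine and 7.58 ± 0.585 CPM with both, against 29.6 ± 2.34 CPM with vehicle in PANC1 (adjusted p at or below 1.09e-10; its value with both was picked after it was seen). NRP1, a co-receptor for VEGFA, had 136 ± 1.29 CPM with SR4 and 48.3 ± 2.68 CPM with both, against 289 ± 13.1 CPM with vehicle in PANC1 (adjusted p = 5.44e-19 and 9.97e-27). In BXPC3 it had 188 ± 12.6 CPM with SR4 and 223 ± 1.51 CPM with both, against 124 ± 6.90 CPM (adjusted p = 2.30e-11 and 5.63e-15). PGF, placental growth factor, fell with all treatments in PANC1, by 2.77 ± 0.326 with both (adjusted p = 1.12e-08), and rose with all in BXPC3, by 2.83 ± 0.151 with both (adjusted p = 1.70e-15); it was picked in PANC1 after its values were seen, as was NRP1 under the BXPC3 combination. NRP2, the other neuropilin, fell in BXPC3, to 64.0 ± 0.149 CPM with SR4, 35.0 ± 4.15 CPM with lonidamine and 23.7 ± 0.789 CPM with both, against 122 ± 10.2 CPM. In BXPC3 4 of the 8 rose and 3 fell with SR4, 2 rose and 3 fell with lonidamine and 4 rose and 4 fell with both, where 33.4%, 34.8% and 39.7% of all genes rose and 33.9%, 32.7% and 39.5% fell.

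Of 10 other ligands of the activin and TGF-beta superfamily, relatives of GDF15 and INHBE, 2 rose and 5 fell with SR4, 1 rose and 6 fell with lonidamine and 1 rose and 9 fell with both in PANC1 (medians −0.31, −1.05 and −1.70; shares of all genes as for the VEGF family). INHBB, the beta-B subunit of activin, had 25.8 ± 2.62, 24.7 ± 1.78 and 12.6 ± 1.54 CPM, against 105 ± 3.05 CPM with vehicle (adjusted p at or below 1.26e-19). In BXPC3, where 4 of 11 rose and 6 fell with SR4, 3 rose and 5 fell with lonidamine and 5 rose and 6 fell with both, INHBA, the beta-A subunit, had 219 ± 5.51, 159 ± 6.10 and 185 ± 4.95 CPM, against 59.4 ± 2.87 CPM (adjusted p at or below 1.12e-19). BMP4, a bone morphogenetic protein, had 7.42 ± 1.1, 10.8 ± 1.79 and 4.89 ± 0.156 CPM there, against 43.2 ± 1.11 CPM (adjusted p at or below 6.50e-16).

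Of 12 receptors and antagonists of GDF15 and the activins tested in PANC1, 5 rose and 5 fell with SR4, 7 rose and 4 fell with lonidamine and 3 rose and 8 fell with both. Over all PANC1 genes 35%, 35% and 40.1% rose and 36.7%, 34.2% and 40.9% fell. RET, the signalling receptor of GDF15, had 10.0 ± 0.343 CPM with SR4, 5.78 ± 0.729 CPM with lonidamine and 5.52 ± 1.37 CPM with both, against 35.3 ± 4.57 CPM with vehicle in PANC1 (adjusted p at or below 1.99e-13). In BXPC3 7 of 14 rose and 4 fell, 7 rose and 2 fell, and 10 rose and 3 fell in the same order. Over all BXPC3 genes 33.4%, 34.8% and 39.7% rose and 33.9%, 32.7% and 39.5% fell. ACVR1B, a type I activin receptor, rose there with every treatment, to 111 ± 1.42 CPM with both against 50.7 ± 3.03 CPM with vehicle (adjusted p = 4.74e-17).

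ADM, the adrenomedullin gene related to ADM2, had 554 ± 43.0 CPM with SR4 and 169 ± 7.89 CPM with both, against 150 ± 7.92 CPM with vehicle in PANC1 (adjusted p = 5.52e-22 and 0.00686). The small rise with both was not called without the second vehicle library (adjusted p = 0.0569). In BXPC3 ADM fell to 16.6 ± 0.561 CPM with both, against 30.7 ± 0.852 CPM (adjusted p = 5.16e-09). Few other genes of this peptide family were tested: of 3 in PANC1, 2 rose and 0 fell with SR4, 1 rose and 0 fell with lonidamine and 3 rose and 0 fell with both, and of 5 in BXPC3 2 rose and 1 fell, 0 rose and 2 fell, and 1 rose and 3 fell. The shares of all genes in both lines were as for the VEGF family.

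Of 11 partners of the stanniocalcins and genes of insulin-like growth factor release tested in PANC1, 5 rose and 4 fell with SR4, 3 rose and 5 fell with lonidamine and 3 rose and 6 fell with both (medians 0.21, −0.0161 and −0.64; shares of all genes as for the VEGF family). Of 12 in BXPC3, 4 rose and 5 fell, 4 rose and 6 fell, and 3 rose and 7 fell in that order (medians −0.11, −0.12 and −0.30). IGFBP4, the substrate of PAPP-A that holds back insulin-like growth factors, fell to 10.8 ± 0.415 CPM with both, against 54.6 ± 1.54 CPM with vehicle in PANC1 (adjusted p = 2.32e-19). In BXPC3 it fell to 55.1 ± 2.7 CPM with both, against 179 ± 8.25 CPM (adjusted p = 3.70e-21). IGFBP5, another substrate of that protease family, had 57.2 ± 6.19, 21.6 ± 0.733 and 1.70 ± 0.737 CPM with SR4, lonidamine and both, against 253 ± 13.5 CPM with vehicle in BXPC3 (adjusted p at or below 7.51e-21). PAPPA itself had 16.7 ± 2.43 CPM with SR4, 2.4 ± 0.52 CPM with lonidamine and 1.44 ± 0.604 CPM with both, against 1.91 ± 0.374 CPM with vehicle there (adjusted p = 9.13e-14, 0.304 and 0.252), so it was called with SR4 and not with the other treatments, whose values were added after they were seen. HMOX1, which encodes the heme-degrading heme oxygenase 1, had 596 ± 29.6 CPM with SR4, 485 ± 10.2 CPM with lonidamine and 563 ± 14.6 CPM with both, against 83.1 ± 3 CPM with vehicle in PANC1 (adjusted p at or below 1.89e-26). In BXPC3 HMOX1 had 25.1 ± 2.03, 9.7 ± 0.32 and 53.2 ± 1.99 CPM, against 3.04 ± 0.301 CPM (adjusted p at or below 9.11e-11; the lonidamine value was added likewise).

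Of 16 other secreted stress factors in PANC1, 11 rose and 3 fell with SR4, 9 rose and 4 fell with lonidamine and 6 rose and 7 fell with both, and against SR4 the combination had 1 higher and 12 lower (median −0.79; 33.2% and 33.4% of all genes). In BXPC3 9 of 17 rose and 7 fell, 10 rose and 6 fell, and 8 rose and 8 fell, and against SR4 9 rose and 7 fell (median 0.37; 30.3% and 30.5% of all genes). The shares of all genes against vehicle were as for the VEGF family in both lines. CSF1, the macrophage growth factor, fell in PANC1 to 10.6 ± 1.43 CPM with both, against 166 ± 5.25 CPM with vehicle (adjusted p = 2.91e-26). The epidermal growth factor receptor ligands HBEGF and AREG rose in BXPC3 with both compounds, HBEGF to 378 ± 6.23 CPM against 106 ± 1.85 CPM (adjusted p = 1.05e-24) and AREG to 254 ± 1.3 CPM against 73.7 ± 2.44 CPM (adjusted p = 8.10e-24). With SR4 and lonidamine alone HBEGF had 257 ± 2.81 and 295 ± 6.13 CPM there. AREG had 163 ± 3.3 CPM with SR4 and was highest with lonidamine, at 490 ± 7.79 CPM. FGF21, a hormone of mitochondrial stress often read beside GDF15, was picked after its values were seen: in PANC1 it had 40 counts with SR4, 3 with lonidamine and 93 with both, against 0 with vehicle, and in BXPC3 1, 3 and 1 counts, against 0.

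The genes whose 6 log2 changes (3 treatments in 2 lines) lay nearest to a member's were found by the root mean square difference among 10407 candidates or, for INHBE, 10408. For VEGFA they were CEBPB (0.299), DUSP5 (0.300) and NEAT1 (0.361), and CEBPB had log2 changes of 2.20, 2.13 and 1.56 in PANC1 and 1.42, 1.33 and 1.99 in BXPC3 with SR4, lonidamine and both. STC2 was nearest to RAB3IL1 (0.479), PSAT1 (0.509) and SMOX (0.598). GDF15 was nearest to LURAP1L (0.541), SYNE3 (0.662) and UPP1 (0.680); in the PANC1 combination these had log2 changes of 2.17, 2.62 and 2.47, above the 1.21 of GDF15. ADM2 was nearest to ASNS (0.879), CLGN (1.05) and DDIT3 (1.16). INHBE had no close neighbour, with ATF3 at 2.71, TRIB3 at 2.78 and ALDH1L2 at 2.80, and its own PANC1 values depend on empty vehicle libraries. STC1 was not placed, since it was not fitted in PANC1.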

How the data were processed

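Gene counts, 1 table per line with 12 libraries each, were used as deposited by the authors, with their gene lengths in kilobases. The tools STAR 2.7.8a, Partek and DESeq2 and the build GRCh38 stand in the submitters' processing notes; the counting tool, annotation release and strandedness were not given in the sources used here. Per the labels' protocols, RNA was extracted with RNeasy and libraries were made with a KAPA mRNA kit. The third SR4 column of BXPC3 carries another number than its sample title and was kept as an unnumbered replicate.

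Members and gene lists were chosen with earlier results of these data known. Low genes were removed by filterByExpr, minimum count 10, which left 3 sets (12920 in BXPC3, 12514 in PANC1 and 13930 over both). Counts were scaled by TMM and tested in edgeR 4.0.16 (R 4.3.3) by the quasi-likelihood test with Benjamini-Hochberg adjustment over all genes, with the 4 groups of a line in 1 fit and all 24 libraries in the fit between lines. Library totals were 8873041 to 11822495 counts. Of 219 list entries, 218 matched by symbol and 1 by a synonym. Named list genes were among the 3 smallest adjusted p-values of their list in a comparison with vehicle unless stated otherwise; those values that compare the combination with SR4, and values of a named gene under its other treatments, were chosen after they were seen. A gene that met the rule is not reported here and remains in the counts of its list. Likeness used genes tested in both lines whose log2 CPM averaged 2 or more. Replicates of a group differed by more than counting error (chi-square per degree of freedom 1.31 to 3.77), so none was merged. The pipeline was tested on simulated data. Alternatives were DESeq2 1.42.0 and its size factors, fits without the low-count filter, with a block for replicate numbers, on the compared groups alone, and with each library left out.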

Additional observations from a re-analysis of the deposited data

Results flagged for a closer look

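Several values ran in opposite directions in PANC1 and BXPC3, with every library of the combination on one side in PANC1 and on the other in BXPC3. The difference between the lines was not tested for any of them. Libraries lay apart for many genes. For the combination against SR4, all PANC1 libraries lay above for 34.4% of tested genes and below for 34.2%. In BXPC3 these shares were 32.6% and 33%. Against lonidamine they were 37.6% and 38.1% in PANC1 and 32.3% and 32.5% in BXPC3. Comparisons with vehicle had shares of 33.4% to 41.7%. The share of genes with opposite directions in the lines was not counted, so nothing is read from these values. For the combination against SR4, GDF15 had a log2 change of −1.93 in PANC1 and 0.848 in BXPC3, VEGFA −1.03 and 1.09, and ADM2 −0.406 and 0.417. For the combination against lonidamine, the PANC1 and BXPC3 values were −1.72 and 1.02 for GDF15, −0.329 and 0.657 for VEGFA, and −0.792 and 0.0905 for ADM2.

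STC1 had a ratio of counts for the combination of 0.0604 against vehicle, 0.111 against SR4 and 0.0887 against lonidamine in PANC1, all from 2 combination counts, and log2 changes of 1.16, 4.15 and 2.87 in BXPC3.

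Some list genes met the same criterion, with PANC1 given before BXPC3. TRIB3 changed by −0.159 and 0.669 in the combination against SR4. Against vehicle, PGF changed by −0.852 and 1.64 with SR4, −1.15 and 2.39 with lonidamine and −2.77 and 2.83 with both. NRP1 changed by −1.09 and 0.591 with SR4 and −2.58 and 0.843 with both, and ADM by 0.168 and −0.888 with both.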

How the results depend on the processing

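The log2 changes of the members kept their direction under all alternatives wherever they were past the threshold: of 1282 recomputed values 1265 stayed within the spread between replicates or on the same side of the threshold, 8 moved, 9 lost the call and 0 reversed. All 17 concern INHBE. With the DESeq2 test its PANC1 log2 changes became 7.93 with SR4, 6.38 with lonidamine and 7.82 with both, and its departure from additivity −6.49, where edgeR gave 8.66, 7.12, 8.54 and −7.23; no vehicle library had a count. Leaving out 1 library at a time gave BXPC3 INHBE ranges of 6.02 to 7.75 with SR4, 3.31 to 5.05 with lonidamine, 3.90 to 5.63 with both and −7.17 to −5.43 for the departure, the far ends without the first vehicle library. Between vehicle lines, INHBE was −3.48 in edgeR and −2.68 in DESeq2 (adjusted p = 0.0649), and −4.02 to −2.27 with 1 library left out, with 8 of those 24 fits not past the threshold. Counts of all genes past the threshold stayed within 1.5 times in all 462 recomputations. Of 7392 recomputed counts within gene lists, 215 moved by more than 1.5 times, 184 of them by 1 gene and 31 by 2 genes, from counts of at most 5.

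Of the named list genes, ADM in the PANC1 combination lost its call without the second vehicle library. Same-numbered libraries did not deviate together (correlations −0.135 to 0.0856), so the numbers were not taken as pairs. With the replicate number as a block, 3968 genes rose and 4024 fell with SR4 in BXPC3, against 4310 and 4375 without it, and the log2 change of GDF15 was 2.58, against 2.60. Depth limits STC1 in PANC1, INHBE in vehicle and STC2 in BXPC3 vehicle.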
